A study of Homo sapiens with 12 samples.

Results

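The comparison of lactic acidosis with lactosis asks what low pH and its buffer add when lactate is already present. It covers 2344 genes, those that the authors' deposited tables list as changed against control both in lactic acidosis and in lactosis. They are 2344 of 4279 genes listed in lactic acidosis, of 3087 listed in lactosis and of 5308 listed in any table. The cells are KKU-213A, a human line from a cholangiocarcinoma, a cancer of the bile ducts, of mixed papillary and non-papillary type. Lactic acidosis cells had been moved stepwise into medium at pH 6.7 that held 25 mM L-lactate and 25 mM of the buffer HEPES. Lactosis cells grew at pH 7.4 with 25 mM L-lactate, and for their medium no HEPES is given. Acidosis cells, used here only beside the comparison, grew at pH 6.5 with 25 mM HEPES and no added lactate. Control cells were untreated. All groups shared low-glucose DMEM with 10% fetal bovine serum, and each treatment had lasted 5 passages or more before use. Each group has 3 libraries of poly(A) RNA. Low pH cannot be told apart from HEPES between lactic acidosis and lactosis. A gene that changed against control in only 1 of these treatments was not compared.

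Cells take up and release lactate with protons through monocarboxylate transporters, so that lactate and acid often arrive together in a tumour. Extracellular acid is known to affect signalling from surface receptors, proteases that work outside the cell, lipid synthesis and the response to amino acid shortage. The MAPK cascade carries growth factor signals to AP-1 transcription factors, whose known targets include urokinase, laminins and the phosphatases that switch the cascade off again.

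The values are expression levels scaled by gene length, as deposited. The 3 libraries of lactic acidosis had Spearman rank correlations of at least 0.997 with each other, and those of lactosis of at least 0.994, while no pair between the groups exceeded 0.992. Library medians of log2(value + 1) over the 2344 genes ran from 4.84 to 4.92 in lactic acidosis, from 4.65 to 4.84 in lactosis and from 4.31 to 4.73 in control. Read depth is unknown. The label was checked against 20 markers of bile duct epithelium, of which 4 were among the genes compared, KRT19, MUC1, CD24 and ANXA4. Their summed level ran from 2875 to 3328 in lactic acidosis libraries and from 3061 to 3190 in lactosis libraries, most of it from KRT19. CD24 and MUC1 were lower in lactic acidosis (log2 difference -0.32 and -0.42), but neither passed in every alternative setting described below. MUC1 was also near the floor, with authors' mean counts of 3.93 in lactic acidosis and 7.45 in lactosis. No marker of blood cells, of fibroblasts and endothelium or of hepatocytes was among the genes compared. Only genes listed as changed in both treatments were compared, so an expressed but unchanged marker would also be missing. This absence therefore does not show whether RNA of such cells was present. The same limit holds for the bile duct markers that were not compared. Of 27 muscle markers, 4 were present (CKM, MYL3, ACTA1, ACTC1), and none passed with limma or limma-trend, or at an unadjusted p under 0.05. Their summed level was 1.42, 30.2 and 0.92 in the lactic acidosis libraries and 0.47, 46.6 and 0.45 in the lactosis libraries, high in replicate 2 of both groups. Their part in the results below was not tested. The counts of genes called and of list members called were also made without each library.

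A total of 479 genes passed limma at an adjusted p under 0.05, which is 20.4% of the 2344. In lactic acidosis 367 were higher (15.7%) and 112 lower (4.78%). These shares over all genes are the background for the counts of list members below. Higher and lower are relative to lactosis, so that a gene called higher can stand below control in both groups. Most differences were small. Of the 479, 316 differed by less than 0.5 on the log2 scale, and a difference of 2-fold or more was reached by 21 higher (0.896%) and 6 lower genes (0.256%). The groups did not overlap in 959 genes (40.9%), 472 of them among the 479. Differences run as lactic acidosis minus lactosis on log2(value + 1), which understates those of genes with low values, and the median 95% interval reached 0.20 to either side. The split between higher and lower depended on scale, since the median difference over all genes was 0.11, against 0.04 on the scale of the authors' fold changes. With each library centred on its median, 263 genes were higher and 298 lower, that is 46.9% higher in place of 76.6%. Scaled to the authors' fold changes the counts were 220 higher and 148 lower (59.8% higher). With the 3 control libraries added to the fit, 95 genes were called, 69 higher and 26 lower. DUSP4, ERRFI1, PLAU, ADAM8, LAMB3, TNFSF18, IL1A, INHBA, CHAC1, KRT5, RNF130, INSIG1, FDFT1 and HIST1H2BK were called in that fit and in 12 further settings (2 pseudocounts, 2 scalings, limma-trend, a replicate block and each library left out). AKAP12, FOSL1, THBS1, CYR61, TGFA, LOXL2, ALDH1A3, SCD, HERPUD1, HSPA1A and HSPA1B were called in those 12 and not with the control libraries. The labels do not say whether libraries of 1 group are separate cultures, and the p-values therefore cover only library-to-library variation, possibly technical.

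**Figure D1:**
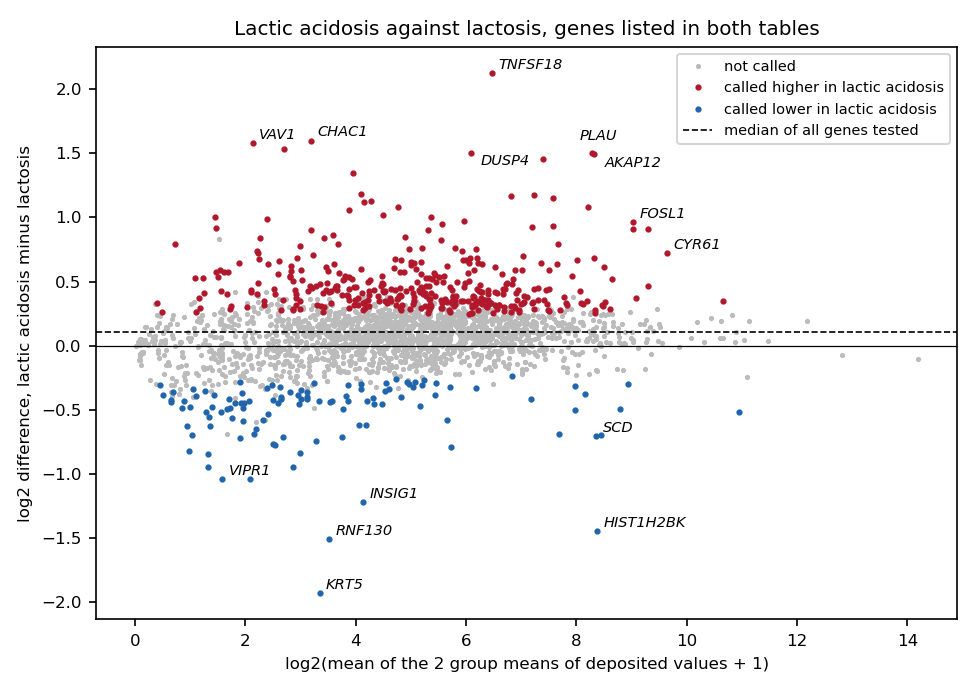
Each point is 1 of the 2344 genes, with the mean of both groups' deposited values on a log2 scale across and the log2 difference, lactic acidosis minus lactosis, up. Red points passed limma higher in lactic acidosis, blue points passed lower, and the dashed line is the median of all genes at 0.11. TNFSF18 stands highest at 2.13 and KRT5 lowest at -1.93.

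The list of the MAPK cascade's feedback and its AP-1 output held more higher than lower calls in lactic acidosis. Of 17 members tested, of 38 on the list, 8 were higher (DUSP1, DUSP4, DUSP6, SPRY4, FOSL1, IL1A, IL1B, EPHA2) and 2 lower (JUN, PHLDA2), with a median of 0.29 beside 0.11 over all genes. Over all genes 15.7% were higher and 4.78% lower. DUSP4, a phosphatase that inactivates ERK in the nucleus (chromosome 8, 29333064 to 29350668 on the minus strand, GRCh38), had values of 242, 254 and 244 in lactic acidosis, against 96.3, 79.7 and 92.4 in lactosis. Every lactic acidosis library was more than 2-fold above every lactosis library, and control averaged 53.3. The log2 difference was 1.46 (SE 0.09, limma, adjusted p = 4.11e-06). FOSL1, the AP-1 subunit FRA1 (chromosome 11, 65892049 to 65900573), had 642, 726 and 705 in lactic acidosis, against 350, 334 and 379 in lactosis, and a mean of 105 in control. Its groups did not overlap either (difference 0.96, SE 0.09, adjusted p = 5.07e-05). DUSP1, a phosphatase of JNK and p38, had 36.4, 40.9 and 37.1 in lactic acidosis, against 23.2, 23.6 and 24.7 in lactosis (difference 0.65, adjusted p = 3.94e-04). DUSP6, the cytoplasmic ERK phosphatase, differed by 0.52, and SPRY4, an inhibitor of receptor signalling, by 0.64.

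Of the other AP-1 subunits, JUN and JUNB were tested. JUN had 38.2, 37.3 and 39.5 in lactic acidosis, against 45.1, 45.7 and 50.6 in lactosis (difference -0.29, adjusted p = 0.0298), while JUNB (difference 0.01) and the early response gene EGR1 (0.01) had overlapping groups. MYC, a transcription factor of growth, was at 0.17 and did not pass (adjusted p = 0.151). The count of higher calls was 8 or 9 when a library was left out, and 8 on both other scales. With the control libraries in the fit 4 were called, and FOSL1 was then just outside (adjusted p = 0.0605). With a library left out, 0 to 2 members were lower.

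Of 4 tested genes, of 17 on the list of the EGFR family's ligands, receptors and regulators, TGFA and ERRFI1 were higher, and the receptors ERBB2 (0.13) and ERBB3 (-0.05) did not pass (median 0.41). TGFA, a ligand of EGFR, had 78.6, 91.6 and 76.8 in lactic acidosis, against 49.0, 47.0 and 56.6 in lactosis (difference 0.68, SE 0.10, adjusted p = 0.00121). ERRFI1 encodes MIG6, which binds and inhibits EGFR (chromosome 1, 8004404 to 8026308). It had 373, 449 and 381 in lactic acidosis and 184, 168 and 214 in lactosis, against 204, 289 and 246 in control. Lactic acidosis thus stood above control and lactosis below it in the authors' deposited tables (log2 fold changes of 0.60 and -0.41), and the difference between them was 1.09 (SE 0.11, adjusted p = 9.27e-05).

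AP-1 proteins bind a palindrome written TGANTCA, where N is any base. The promoters of IL1A, the cytokine interleukin 1 alpha, and LAMB3, the laminin 332 beta chain, are shown because these members were higher and hold the motif close to their start. Both are RefSeq windows on GRCh38.p14, from 250 bases before to 50 after a start, 5′ to 3′ on the gene's minus strand, with the motif in capitals. The IL1A window is chr2:112784444-112784743, with the motif at positions -12 and 39 (the start base being position 1), and the LAMB3 window is chr1:209651325-209651624, with the motif at position -67.
IL1A: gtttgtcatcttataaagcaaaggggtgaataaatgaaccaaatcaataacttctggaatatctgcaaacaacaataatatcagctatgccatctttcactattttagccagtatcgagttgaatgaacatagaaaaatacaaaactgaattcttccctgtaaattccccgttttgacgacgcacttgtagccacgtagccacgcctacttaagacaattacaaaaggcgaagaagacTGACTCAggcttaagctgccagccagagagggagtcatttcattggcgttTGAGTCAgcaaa
LAMB3: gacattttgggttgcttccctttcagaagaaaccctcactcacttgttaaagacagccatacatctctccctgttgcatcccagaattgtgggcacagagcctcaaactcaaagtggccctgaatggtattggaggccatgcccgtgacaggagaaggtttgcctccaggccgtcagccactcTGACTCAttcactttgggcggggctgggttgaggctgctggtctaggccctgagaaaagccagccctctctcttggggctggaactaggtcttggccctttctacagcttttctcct
RefSeq gave windows for 1793 of the 2344 genes, some genes with several. Searched on both strands, the motif was in 34 of 414 windows of genes called higher (8.21%), in 8 of 136 of genes called lower (5.88%), in 6.12% of those not called and in 7.71% of all 35116 windows in the table. The share in genes called higher is thus close to that of all promoters.

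Transcripts of urokinase, and of many tested genes for the matrix around the cells and its receptors, were higher in lactic acidosis. Urokinase activates plasminogen at the cell surface, and laminin 332 and thrombospondin are matrix proteins that integrins bind. Of 8 members tested of 25 in the list of urokinase and matrix proteases, 4 were higher, among them PLAU, ADAM8 and TIMP2 (median 0.43). PLAU, urokinase itself (chromosome 10, 73909177 to 73917497), had 444, 485 and 446 in lactic acidosis and 176, 140 and 169 in lactosis, against 301, 342 and 334 in control. The groups were ordered without overlap, lactic acidosis above control and control above lactosis, and lactic acidosis exceeded lactosis by 1.51 (SE 0.10, adjusted p = 6.86e-06). Its receptor PLAUR had 54.5, 53.6 and 49.7 in lactic acidosis, against 43.7, 47.0 and 44.8 in lactosis, and did not pass (difference 0.21, adjusted p = 0.0822). ADAM8, a membrane metalloprotease, differed by 1.08, and TIMP2, an inhibitor of metalloproteases, by 0.59. Of 40 windows of 75 bases along its transcripts, 17.5% also occur in C10orf55 for PLAU and 12.5% in other genes for TIMP2.

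Of 16 tested members of 49 in the list of matrix and integrins, 10 were higher, and the median was 0.56, the highest of all lists. Chains of laminin 332 were among them. LAMB3 (chromosome 1, 209614870 to 209652466) had 401, 378 and 407 in lactic acidosis, against 249, 227 and 260 in lactosis (difference 0.69, adjusted p = 3.57e-04), and LAMA3 differed by 0.66. THBS1, thrombospondin 1 (chromosome 15, 39581079 to 39599466), had 618, 743 and 685 in lactic acidosis, against 360, 318 and 415 in lactosis (difference 0.91, adjusted p = 3.61e-04). LOXL2, an enzyme that cross-links collagen, differed by 1.00. The laminin receptor subunit ITGA6 differed by 0.62, ITGB5 by 0.50, tenascin gene TNC by 0.64 and TGFBI by 0.40. ITGB1, the common integrin beta chain, was at 0.12 (adjusted p = 0.394), and the collagens COL7A1 (-0.15), COL12A1 (0.16) and COL18A1 (-0.10) had overlapping groups. With a library left out 9 to 12 members were higher, and with each library centred 10. With the control libraries in the fit 2 were. THBS1 then had an adjusted p of 0.494, and its control values averaged 92.6 ± 83.0 (SD, n = 3).

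CYR61, a matrix protein on that list and a known target of the coactivator YAP, had 1003, 985 and 1000 in lactic acidosis, against 577, 563 and 675 in lactosis (difference 0.72, adjusted p = 3.71e-04). Among 9 tested genes of the YAP and TEAD list it was higher together with NT5E (0.70), the coactivator WWTR1 (0.41) and F3, tissue factor (0.35), and the median was 0.24. Without 1 library 2 to 4 were called, and with the control libraries in the fit 0. AKAP12, a scaffold for protein kinase A (chromosome 6, 151239999 to 151358557), had 454, 493 and 463 in lactic acidosis, against 159, 140 and 207 in lactosis, and averaged 14.5 in control (difference 1.49, SE 0.13, adjusted p = 3.70e-05). TNS4, a focal adhesion protein, differed by 1.16, ANO1, a chloride channel, by 1.50 and ZFP36L1, which promotes decay of AU-rich mRNAs, by 1.17. ANKRD33B, an ankyrin repeat gene, had 7.74, 9.37 and 8.81 in lactic acidosis, against 2.35, 2.08 and 2.55 in lactosis (difference 1.53). CLDN11, a claudin of tight junctions, differed by 1.35, and 22.5% of its windows occur in another gene. FAR2, which reduces fatty acyl-CoA to fatty alcohols, differed by 1.18.

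**Figure D2:**
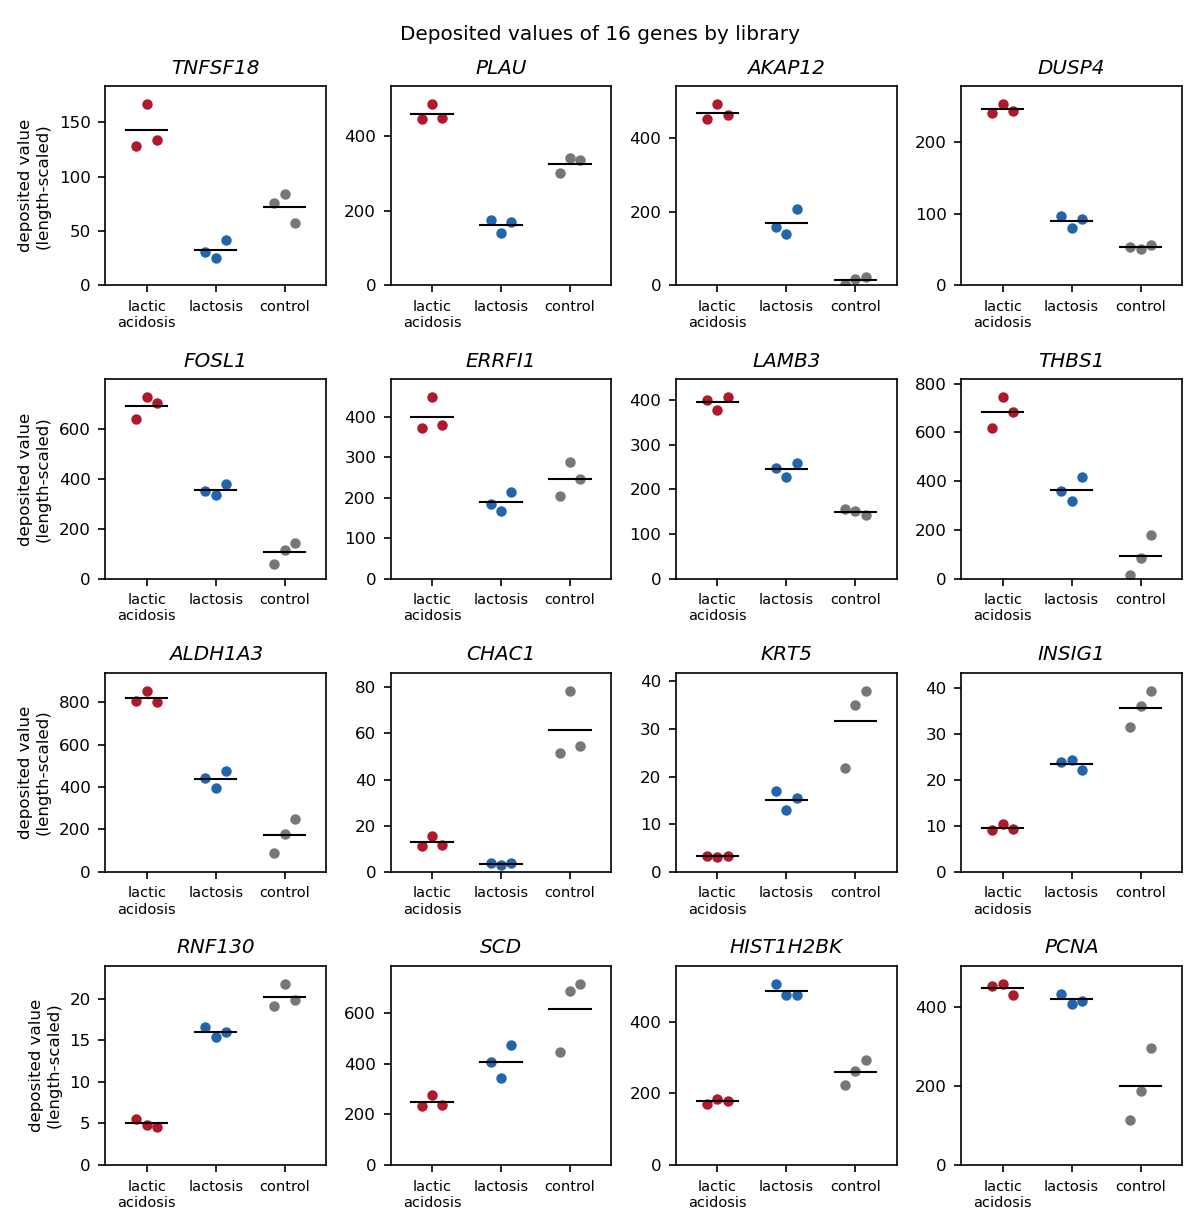
Deposited length-scaled values (linear axis from 0) of 16 genes in each library, with 3 libraries each of lactic acidosis, lactosis and control, and a line at each mean. PLAU and TNFSF18 have lactic acidosis above control and lactosis below it, KRT5 is at 3.04 to 3.37 in lactic acidosis and at 12.98 or more in lactosis, and the PCNA values of both groups overlap.

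Cytokines moved both ways. Of 14 members tested of 50, 6 were higher (TNFSF18, IL1A, LIF, SAA2, IL1B, CSF1) and 6 lower (S100A9, CXCL1, CX3CL1, S100A2, IL1RN, TNFSF10), and the median was -0.02. TNFSF18, the ligand of the T cell receptor GITR (chromosome 1, 173039960 to 173050963), had the largest difference of all genes. Its values were 128, 167 and 133 in lactic acidosis and 31.0, 24.7 and 41.7 in lactosis, against 75.4, 83.8 and 57.5 in control. The 3 groups did not overlap, and lactic acidosis exceeded lactosis by 2.13 (SE 0.17, adjusted p = 1.94e-05). IL1A had 247, 304 and 242 in lactic acidosis, against 108, 118 and 128 in lactosis (difference 1.15, adjusted p = 5.64e-05). IL1B differed by 0.64, and LIF, a cytokine of the interleukin 6 family, by 1.02. The antagonist of both interleukins, IL1RN, had 1.61, 2.68 and 1.72 in lactic acidosis, against 2.83, 2.87 and 3.43 in lactosis (difference -0.44, adjusted p = 0.0339).

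S100A9, a calcium-binding alarmin, had 9.26, 10.3 and 7.88 in lactic acidosis, against 12.7, 21.0 and 14.1 in lactosis (difference -0.71, adjusted p = 0.0118). The chemokine CXCL1 passed (difference -0.69, adjusted p = 0.0432) although its groups overlapped, with 1.10, 0.46 and 0.19 in lactic acidosis against 1.91, 0.84 and 1.87 in lactosis. Of the 6 lower calls, 2 were left without lactic acidosis replicate 3 and 3 without lactosis replicate 1, and with the control libraries 1. The 6 higher calls were 5 or 6 throughout. CSF1 and the 6 lower members were named after their values were seen. SAA2 shares 20.0% of its windows with SAA1 and a read-through gene.

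In the TGF-beta and BMP list, INHBA and INHBE were the ligands called higher. INHBA, which encodes the subunit of activin A, had 25.0, 21.8 and 22.9 in lactic acidosis, against 9.98, 10.6 and 9.87 in lactosis (difference 1.12, SE 0.08, adjusted p = 1.18e-05). Its antagonist follistatin, FST, had 300, 274 and 260 in lactic acidosis, against 303, 322 and 344 in lactosis, and did not pass (difference -0.22, adjusted p = 0.105). On both other scales FST passed limma as lower. Its adjusted p was 0.0171 with libraries centred on their medians (difference -0.34) and 0.0455 on the authors' scale. The receptor TGFBR2 (0.45) and INHBE were the other members higher, 3 of 6 tested of 34 (median 0.36), and TGFBR2 was lost without each of 4 libraries and on the authors' scale. TGFB1 was at -0.02. Of 7 tested genes of Wnt and Notch (median 0.09), the receptor NOTCH3 was higher (0.64) and HEY1, a target of Notch signalling, was lower, with 2.50, 2.63 and 2.15 in lactic acidosis against 3.73, 4.66 and 5.20 in lactosis (difference -0.68, adjusted p = 0.00193). FGF5, a growth factor, was lower by 0.53, though above control in both groups (authors' deposited log2 fold changes of 2.84 in lactic acidosis and 3.59 in lactosis).

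Basal keratins were lower. KRT5 (chromosome 12, 52514575 to 52520687), which pairs with KRT14 in the filaments of basal epithelial cells, had 3.30, 3.04 and 3.37 in lactic acidosis and 17.0, 13.0 and 15.6 in lactosis, against 21.9, 35.0 and 38.1 in control. Lactic acidosis was thus below lactosis and lactosis below control in every library, with a difference of -1.93 (SE 0.10, adjusted p = 2.18e-06), the lowest of all genes. KRT14 had 8.37, 7.55 and 10.7 in lactic acidosis, against 12.2, 11.7 and 13.0 in lactosis, above the control mean of 2.95 in both (difference -0.44, adjusted p = 0.0214), and lost its call without each of 3 libraries (adjusted p up to 0.0886). The desmosomal cadherin DSG3 was higher (0.52). These are the 3 calls among 7 tested genes of the epithelial list, whose median was 0.04, and KRT19, the keratin of bile duct cells, was at 0.04 with overlapping groups. RNF130, a ubiquitin ligase (chromosome 5, 179911651 to 180072118), ranged from 4.55 to 5.56 in lactic acidosis, against 15.4 to 16.5 in lactosis (difference -1.51, adjusted p = 3.16e-06). Other genes at the lower end were the neuropeptide receptor VIPR1 (-1.04), EVI2B (-1.04), CXXC5 (-0.95), HAP1 (-0.94), the Nogo receptor RTN4R (-0.84) and the extracellular chaperone CLU, clusterin (-0.79). PAX6, listed at -0.85, shares 70.0% of its windows with ELP4 and lost its call without lactic acidosis replicate 1 (adjusted p = 0.0524).

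Among amino acid stress genes, known targets of the transcription factor ATF4, several were below control in both groups and less so in lactic acidosis. Of 8 tested of 29, 5 were higher in lactic acidosis than in lactosis (CHAC1, INHBE, SESN2, PSPH, ALDH18A1), and the median was 0.46. CHAC1, which degrades glutathione (chromosome 15, 40952962 to 40956519), had 11.1, 15.6 and 11.5 in lactic acidosis and 3.71, 2.99 and 3.81 in lactosis, against 51.6, 78.6 and 54.5 in control. The difference was 1.60 (SE 0.13, adjusted p = 2.04e-05). INHBE, an inhibin subunit, had 0.89, 0.97 and 1.42 in lactic acidosis, against 0.33, 0.08 and 0.20 in lactosis (difference 0.80, adjusted p = 9.98e-04), and the authors' mean counts were 22.7 in lactic acidosis and 3.89 in lactosis. SESN2, a sensor that restrains mTORC1, differed by 0.52, and PSPH, the last enzyme of serine synthesis, by 0.50.

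The transcription factors DDIT3 and ATF3 of this response were tested and did not pass. DDIT3, also called CHOP, had 15.1, 17.0 and 17.0 in lactic acidosis, against 16.6, 13.0 and 12.5 in lactosis, with a control mean of 454 (difference 0.22, 95% interval -0.03 to 0.46, adjusted p = 0.183). ATF3 was at 0.42 (adjusted p = 0.0585). HERPUD1, a membrane protein of the unfolded protein response, was higher, with 47.5, 50.3 and 46.6 in lactic acidosis against 36.1, 31.4 and 32.3 in lactosis (difference 0.52, adjusted p = 0.00215). Both groups stood below control, with authors' deposited log2 fold changes of -2.80 in lactic acidosis and -3.26 in lactosis. HERPUD1 was 1 of 2 tested on that list, with a median of 0.38, and CANX, a chaperone of glycoprotein folding, was at 0.24. Without lactic acidosis replicate 2, 3 amino acid stress genes were called, and with the control libraries 1, CHAC1.

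ATF4 binds elements of the form TGATGNAA. CHAC1 and HERPUD1 are shown because both were higher and hold 1, read here on the opposite strand, in their RefSeq window on GRCh38.p14 (plus strand, capitals mark the match). The CHAC1 window is chr15:40953221-40953520, with the match at position -209, and the HERPUD1 window is chr16:56931892-56932191, with the match at position -176.
CHAC1: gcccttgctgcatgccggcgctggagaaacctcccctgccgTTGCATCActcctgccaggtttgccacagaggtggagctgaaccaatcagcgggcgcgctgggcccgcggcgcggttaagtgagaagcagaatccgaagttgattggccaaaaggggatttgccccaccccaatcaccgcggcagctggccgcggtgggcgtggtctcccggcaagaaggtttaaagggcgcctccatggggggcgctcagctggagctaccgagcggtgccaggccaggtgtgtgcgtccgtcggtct
HERPUD1: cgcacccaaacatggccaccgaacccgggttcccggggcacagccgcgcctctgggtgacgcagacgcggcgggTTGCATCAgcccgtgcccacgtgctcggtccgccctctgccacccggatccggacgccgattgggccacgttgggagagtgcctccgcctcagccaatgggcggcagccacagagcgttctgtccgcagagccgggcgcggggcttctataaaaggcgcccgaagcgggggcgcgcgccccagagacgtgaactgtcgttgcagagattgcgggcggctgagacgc
On both strands, 14 of 414 windows of genes called higher held the motif (3.38%), 2.21% of those called lower, 1.33% of those not called and 3.62% of all windows in the table. The share in genes called higher was thus above that of genes not called but close to that of all windows. A window of SLC1A4, which was not called, holds the same match at position -7. Whether ATF4 acts on these genes here was not tested.

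Sterol and fatty acid genes included some of the lower calls. INSIG1, which holds the sterol sensor in the endoplasmic reticulum and is itself a target of the sterol-responsive factor SREBP (chromosome 7, 155297776 to 155310235), had 9.01, 10.4 and 9.30 in lactic acidosis and 24.0, 24.3 and 22.2 in lactosis, against 31.5, 36.1 and 39.5 in control. The 3 groups did not overlap (difference -1.22, SE 0.08, adjusted p = 7.67e-06). FDFT1, squalene synthase, had 154, 161 and 153 in lactic acidosis, against 251, 245 and 260 in lactosis (difference -0.69, adjusted p = 1.88e-04). SCD, the desaturase that makes oleate (chromosome 10, 100347124 to 100364834), had 232, 276 and 239 in lactic acidosis, against 409, 346 and 473 in lactosis (difference -0.71, adjusted p = 0.00248). HSD17B7, another sterol enzyme (-0.34), and STARD4, a sterol carrier (-0.43), were lower too.

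By list, 2 of 3 tested genes of cholesterol synthesis were lower (median -0.34, of 21 on the list). Of sterol control 2 of 8 were lower and 1, the sterol exporter ABCA1, was higher (0.27, adjusted p = 0.0497, lost on both other scales), with a median of 0.01. Of fatty acid synthesis 1 of 4 was lower (median -0.13), and with libraries centred 3 of 4. HSD17B7 was lost without each of 3 libraries (adjusted p up to 0.0606). Most sterol enzymes were not listed in both tables and were not compared. The sterol regulatory element TCACNCCAC was in 0 of 136 windows of genes called lower, in 1 of 414 called higher and in 1.13% of all windows.

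Genes that handle lactate, protons and sugar were mostly without a call. SLC16A1, a lactate and proton transporter, had 324, 341 and 304 in lactic acidosis, against 299, 273 and 325 in lactosis (difference 0.11, 95% interval -0.09 to 0.32). SLC16A3, the lactate exporter, had 280, 298 and 326 in lactic acidosis, against 261, 242 and 253 in lactosis, without overlap, and missed the threshold (difference 0.26, adjusted p = 0.0578). Of these 2, SLC16A3 passed at an unadjusted p under 0.05 and with limma-trend (median 0.19). Of 3 tested genes of pH regulation, the proton-gated channel ASIC1 was higher (0.29) and the sodium-proton exchanger SLC9A2 lower (-0.39), with a median of 0.21, but ASIC1 was lost whichever library was left out and SLC9A2 without each of 4. No glycolysis gene of 4 tested passed with limma or limma-trend, or at an unadjusted p under 0.05 (median -0.07). GAPDH had 6439, 7664 and 7119 in lactic acidosis, against 7532, 7307 and 7401 in lactosis (95% interval of the difference -0.26 to 0.12). PDK2, a kinase that inhibits pyruvate dehydrogenase, was lower (-0.36), 1 of 3 tested of its list (median 0.08), but was lost without each of 5 libraries and shares 60.0% of its windows with SAMD14. TXNIP, which restrains glucose uptake and is induced by the sensor MondoA, was higher, with 14.7, 15.9 and 15.1 in lactic acidosis against 12.5, 9.45 and 12.2 in lactosis (difference 0.40, adjusted p = 0.0244), 1 of 3 on its list (median 0.26). It lost its call without each lactic acidosis library and on the authors' scale.

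Lysosomal genes were mixed. Of 10 tested of 43, the proteases CTSB (0.33) and CTSZ (0.34) and the transcription factor MITF (0.44) were higher and the sialidase NEU1 (-0.47) and GPNMB (-0.82) lower, with a median of 0.16. GPNMB had 0.56, 0.48 and 0.23 in lactic acidosis, against 1.91, 1.39 and 1.24 in lactosis, and the authors' mean count in lactic acidosis was 9.88. The proton pump subunit ATP6V0E1 was at -0.07. With a library left out, 2 members were still lower and 1 to 3 higher.

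Retinoid genes included one of the most strongly expressed calls. ALDH1A3, which makes retinoic acid (chromosome 15, 100877714 to 100916626), had 807, 855 and 801 in lactic acidosis, against 441, 396 and 477 in lactosis, with a mean of 172 in control (difference 0.91, SE 0.09, adjusted p = 7.85e-05). With the control libraries its adjusted p was 0.0943, and 32.5% of its windows occur in an overlapping gene. DHRS3, which reduces retinal to retinol, had 90.7, 90.9 and 90.3 in lactic acidosis, against 52.0, 58.7 and 49.8 in lactosis (difference 0.75, adjusted p = 2.09e-04). Unlike ALDH1A3, it was listed below control in both groups (authors' deposited log2 fold changes of -1.54 in lactic acidosis and -2.21 in lactosis). CYP26A1, which breaks down retinoic acid, was near 0, with 0.00, 0.31 and 0.05 in lactic acidosis against 0.05, 0.00 and 0.23 in lactosis. Of 11 tested of 32 in the list of aldehyde dehydrogenases and retinoid metabolism, 4 were higher, with ALDH3B1 and ALDH18A1, and the median was 0.31. Over all genes the share higher was 15.7%.

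Interferon genes were higher among few members. Of 7 tested of 47, IRF1 (0.56), UBE2L6 (0.46), IFIT2 (0.46) and IFIT3 (0.28) were higher, with a median of 0.28. Each of these was listed below control in both groups. The authors' deposited log2 fold changes of IRF1 were -0.66 in lactic acidosis and -1.16 in lactosis. IRF1, the transcription factor among them, had 51.2, 50.8 and 49.0 in lactic acidosis, against 34.7, 32.6 and 33.9 in lactosis (adjusted p = 6.63e-04), and 30.0% of its windows occur in overlapping genes. Of 10 tested genes of antigen presentation, TAPBP (0.42), which loads peptides, and CD274, the checkpoint ligand PD-L1, were higher, with a median of 0.22. That count is near the 15.7% higher over all genes. TAPBP was listed below control in lactic acidosis (-0.27) and in lactosis (-0.62), and CD274 above it (2.22 and 1.62). CD274 ranged from 11.5 to 13.4 in lactic acidosis, against 6.40 to 9.18 in lactosis (difference 0.62, adjusted p = 0.0046). CD74, the class II invariant chain, was at -0.02.

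Most genes of DNA replication did not pass. PCNA, the sliding clamp, had 454, 459 and 431 in lactic acidosis, against 433, 408 and 416 in lactosis, while control averaged 199 (difference 0.10, 95% interval -0.07 to 0.27). Of 22 tested of 48, the polymerase subunit POLE2 was higher (0.43) and the transcription factor E2F1 lower (-0.27), with a median of 0.05. E2F1 was lost without each of 4 libraries, and with each library centred 5 members were lower. Of 4 mitotic genes AURKB (0.36) and KIF23 (0.33) were higher, with a median of 0.19. Of 28 tested genes of ribosome biogenesis TSR1 (0.42) and RRP12 (0.31) were higher (median 0.09), but with libraries centred 1 was higher and 4 lower. None of 13 tested genes of translation passed with limma, while 2 were higher at an unadjusted p under 0.05 and 2 with limma-trend (median 0.15). PSMD11 was the 1 call of 8 proteasome genes (0.26, median 0.15), and was lost on both other scales.

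The tested histone genes lay on the lower side, while chaperone genes had calls both ways. HIST1H2BK, a gene of histone H2B (chromosome 6, 27146418 to 27146798), had 170, 184 and 180 in lactic acidosis and 506, 476 and 476 in lactosis, against a control mean of 259. It was the only gene listed lower against control in lactic acidosis and higher in lactosis (difference -1.45, SE 0.08, adjusted p = 2.18e-06). As 52.5% of its windows occur in other H2B genes, reads of these copies may have been split or shared. The libraries are of poly(A) RNA, so histone transcripts without a poly(A) tail were not selected for. HIST3H2A was lower too (-0.40), 2 of 3 tested (median -0.40), and was lost without each of 4 libraries. HSPA1A and HSPA1B, inducible HSP70 genes that share 70.0% of their windows and cannot be separated well, were lower (-0.49 and -0.69). Both genes were nevertheless above control in both groups. The authors' deposited log2 fold changes were 2.12 in lactic acidosis and 2.69 in lactosis for HSPA1A, and 1.66 and 2.43 for HSPA1B. HSPA1B had 271, 252 and 270 in lactic acidosis, against 440, 410 and 433 in lactosis. HSPA2 (0.31) and HSPA4 (0.36) were higher among the 14 tested chaperones, whose median was 0.07, but neither was called on the authors' scale. The shares over all genes were 15.7% higher and 4.78% lower.

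The remaining lists had few members. BNIP3L, a hypoxia target that acts in mitophagy, was higher (0.30, lost on both other scales). Of 4 tested NRF2 targets, TKT, a pentose phosphate enzyme, was lower (-0.30, lost without each of 3 libraries), with a median of 0.01. Of 9 tested genes of the ABC family, not all of them transporters, ABCA1 and ABCF1 (0.28) were higher (median 0.19), both lost on the other scales. Over all genes 15.7% were higher. No gene of fatty acid oxidation passed of 4 tested with limma (median 0.12), 2 were higher at an unadjusted p under 0.05 and 1 with limma-trend. The single tested genes of the respiratory chain, ATP5B (0.03), and of amino acid transport, SLC1A4 (0.14), had overlapping groups. Besides the calls noted above as lost without a library, those of ABCA1, ABCF1, ALDH18A1, BNIP3L, CD24, CTSZ, F3, HSPA2, HSPA4, IFIT3, KIF23, PSMD11, RRP12, SESN2, STARD4 and WWTR1 were lost when at least 1 library was left out.

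**Figure D3:**
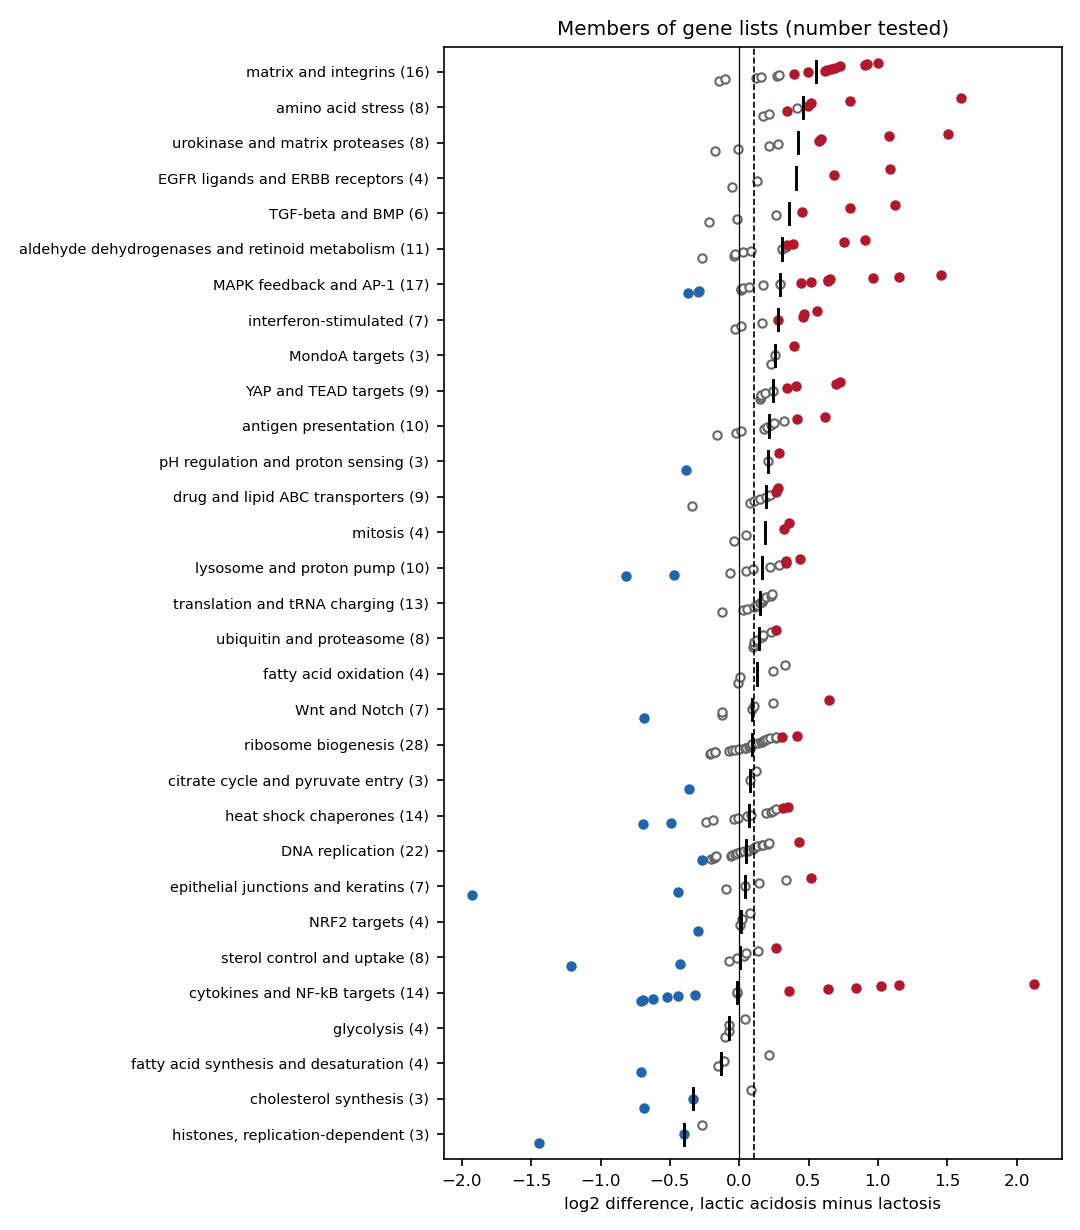
Log2 difference, lactic acidosis minus lactosis, of each tested member of 31 lists with 3 or more tested, sorted by the list median (bar), with the number tested in brackets. Red and blue points passed limma higher and lower, open points did not pass, and the dashed line is the median of all 2344 genes at 0.11. The list of matrix and integrins has the highest median at 0.56, and cytokines have members on both sides.

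Against control, 8 of the 2344 genes stood in opposite directions in the authors' deposited tables. TNFSF18, VAV1, PLAU, IL1A, ERRFI1, SNX14 and CTSB were listed higher in lactic acidosis and lower in lactosis, and HIST1H2BK the other way. Both tables share the same control libraries, and genes on opposite sides of control had to differ between the treated groups, so their differences are given as a description. VAV1, a signalling protein best known in blood cells, had 5.70, 5.55 and 5.51 in lactic acidosis, against 1.04, 1.27 and 1.31 in lactosis (difference 1.58). SNX14, a sorting nexin, differed by 0.55 and CTSB by 0.33. CTSB was lost without each of 3 libraries and on the authors' scale (adjusted p = 0.0661).

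Of the 2344 genes, 1042 were also listed in acidosis, at pH 6.5 with HEPES and no added lactate. The comparison of acidosis with control shares no library with that of lactic acidosis and lactosis, though the pH differed from the 6.7 of lactic acidosis. The 2 are still not independent, since the 1042 genes were chosen by their change against the same control libraries in each treatment. How far the shares below follow from that choice was not tested. Of 191 genes called higher in lactic acidosis than in lactosis, 155 (81.2%) were listed higher in acidosis than in control. Of 62 genes called lower, 51 (82.3%) were listed lower there. Over all 1042 genes, 64.5% were listed higher and 35.5% lower. AKAP12 had 46.9, 32.5 and 31.1 in acidosis (authors' deposited log2 fold change 1.39), DUSP4 had 80.2, 69.7 and 64.4 (0.39) and FOSL1 had 247, 245 and 241 (1.21). KRT5, at 15.6, 11.9 and 9.05 in acidosis (-1.38), RNF130, at 12.1, 11.8 and 12.1 (-0.77), and INSIG1, at 25.7, 26.4 and 25.8 (-0.47), were listed lower, and each stood above its lactic acidosis values.

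Some genes went the other way. PLAU had 231, 200 and 186 in acidosis, below every control library (-0.68 in the authors' deposited table), although lactic acidosis was above control. ERRFI1 likewise had 170, 144 and 132 (-0.74). CHAC1 had 3.59, 4.29 and 4.05 in acidosis (-3.93), overlapping the 2.99 to 3.81 of lactosis and below the 11.1 to 15.6 of lactic acidosis. INHBE (-5.02) and SESN2 (-2.35) were listed lower in acidosis as well.

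**Figure D4:**
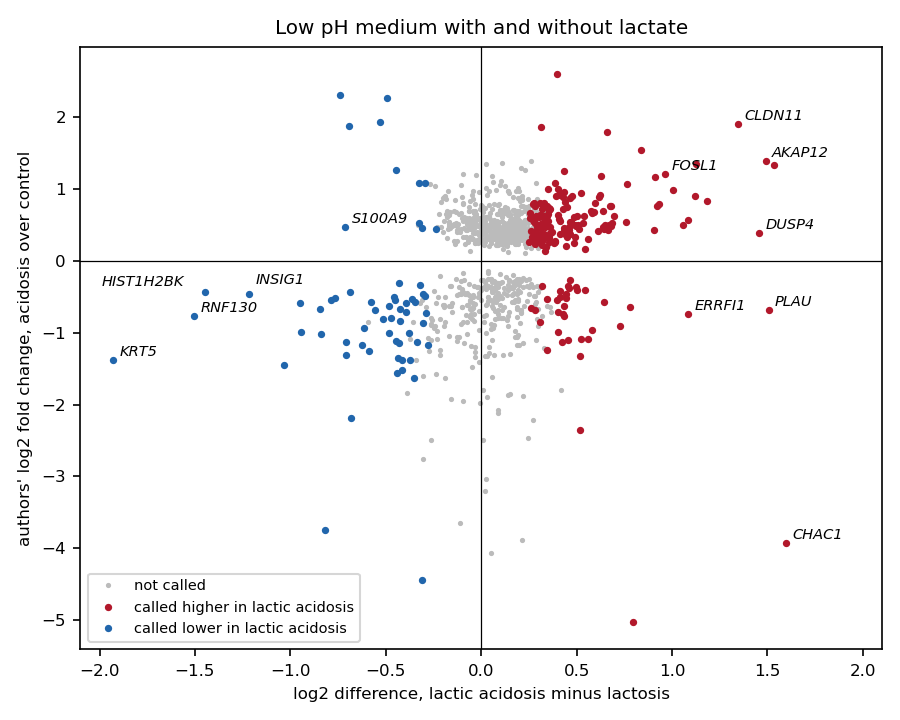
For the 1042 genes listed in all 3 tables, the log2 difference of lactic acidosis minus lactosis is plotted across and the authors' deposited log2 fold change of acidosis over control up. Red and blue points passed limma higher and lower in lactic acidosis than in lactosis. Of the red points, 81.2% lie above 0 on the vertical axis, and CHAC1, PLAU and ERRFI1 lie below it.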

How the data were processed

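Polyadenylated RNA of KKU-213A cells was sequenced as single-end reads of 75 nt, per the labels' protocols. Alignment tool and build were STAR and hg38, per the submitters' processing notes. The counting tool and annotation are not given in the sources used here. The deposited per-library values are a signal, scaled by gene length and library, TPM or FPKM being left unstated. Deposited means per group are a signal too, counts divided by the authors' size factors. The authors' deposited fold is a ratio with control on top, and it was inverted here. The deposited posterior probabilities were used only through the gene lists of the tables. No library totals are given, so depth is unknown and precision rests on 3 libraries per group.

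The 6 libraries of lactic acidosis and lactosis were compared on log2(value + 1) by limma (version 3.58.1, R version 4.3.3), two-sided and with no filter, with Benjamini-Hochberg adjustment over all 2344 genes. Control values were equal in both tables (largest difference 0), so values were compared across tables. The test was tried on simulated data. Alternatives were pseudocounts of 0.1 and 5, a minimum mean of 1, 2 other scalings, limma-trend, 9 libraries with control, replicate number as a block, adjusted p under 0.01 and leaving out each library. The members and the lists were chosen with earlier results of these data known, and lists are described by counts and medians only. Genes to name were the 12 largest differences each way, up to 5 called and 2 uncalled members per list, the 8 genes listed in opposite directions, 4 strongly expressed uncalled genes and some genes of interest, and the text gives those its comparisons turn on. Other list members were added where a count called for them. Positions are from GENCODE 29 (GRCh38). Python 3.11.15 was used for the rest. Some genes are not reported here.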

Additional observations from a re-analysis of the deposited data

How the results depend on the processing

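Of the 479 calls, 209 kept their direction and an adjusted p under 0.05 in each of 12 alternatives (both pseudocounts, both other scalings, limma-trend, the replicate block and each library left out), and 94 also with the control libraries in the fit. None of the 96 calls among the genes named by rule changed direction in these alternatives. In limma-trend, the replicate block and the fit with control libraries the estimated difference is the same by construction. Direction could therefore not change in those fits. With 9 libraries 95 genes were called (69 higher, 26 lower), and 56 of 96 named calls were lost. At an adjusted p under 0.01 there were 214 (167 higher, 47 lower). Centred libraries gave 298 lower and kept 375 of the calls, and the authors' scale gave 220 higher and kept 332. Calls of at least 2-fold numbered 41 (14 lower) with a pseudocount of 0.1 and 14 (11 higher, 3 lower) with a pseudocount of 5. Leaving out 1 library gave 259 to 663 calls, 192 to 551 higher and 63 to 135 lower, of which 25 to 35 were at least 2-fold, 18 to 28 higher and 5 to 7 lower. The fewest calls came without lactic acidosis replicate 2 and the most without lactosis replicate 3. Whether replicate numbers pair the libraries is not settled. Deviations of same-numbered libraries had small correlations (0.12, 0.22 and -0.06), but muscle markers were high in replicate 2 of both groups. The fit with the replicate block called 335 genes (248 higher, 87 lower). The cause of these shifts was not tested. In 58 genes an authors' mean count was under 10 in either group, and the number of libraries limits the precision of all values.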
